A study of Gallus gallus with 6 samples.

Results

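The 150 genes described here were chosen by their measured FPKM values for a shared profile across 6 RNA-seq libraries of early chicken embryos: their level was high in control 1, control 2 and ZnO 1 and low in control 3, ZnO 2 and ZnO 3. This division runs across the treatment groups, with libraries of both groups on each side, and the labels do not name it. For each gene with a mean of at least 5 FPKM (fragments counted, scaled to gene model length and library depth) the values were put on the log2(FPKM + 1) scale, and the highest of control 3, ZnO 2 and ZnO 3 was subtracted from the lowest of control 1, control 2 and ZnO 1. The 150 largest differences were taken among the 8861 protein-coding genes the rule could take, out of 24098 genes in the files. Genes with symbols starting RPL, RPS or NDUF were left out by the rule. Because the measured values chose the members, their difference between these libraries is a description and carries no test.

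Whole embryos of the chicken, Gallus gallus, were collected at Hamburger-Hamilton stage 10 for sequencing of messenger RNA, when somites are forming and cranial neural crest cells begin to leave the neural tube. There were 3 control libraries, labelled absence, from embryos given no particles, and 3 libraries from embryos treated with zinc oxide (ZnO) nanoparticles. Neither the dose, the route nor the length of exposure is given, no genotype or strain is named, and the stage label of each sample carries a window from 34 hours to 39, 40 and 41 hours for control 1, 2 and 3 and to 42, 43 and 44 hours for ZnO 1, 2 and 3. Whether 1 embryo or a pool made up a replicate is not stated, so p-values here measure only how these libraries spread, and that spread may be partly technical.

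Most of the 150 genes encode proteins that enter the secretory route. Such proteins are threaded into or through the membrane of the endoplasmic reticulum (ER) as they are made on ribosomes bound there. In the ER they are folded and given sugar chains, and they pass through the Golgi to the cell surface, the lysosome or the space outside the cell. Proteins of the nucleus, the cytosol and the mitochondrial interior are instead made on free ribosomes and do not use this route. In an embryo of this stage the route supplies the adhesion molecules, receptors and matrix with which tissues fold and cells migrate.

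The depth recovered from the steps of the FPKM values was 18208501 to 19843561 reads a library, so depth differed little between libraries. ZnO 1 stood apart in its total, with FPKM values summing to 480047 against 531480 to 559992 in the other 5 libraries. It also stood apart in the RPL and RPS genes, which encode the cytosolic ribosomal proteins: the median of their log2(FPKM + 1) minus each gene's own mean was -0.57 in ZnO 1 and 0.31 in control 3, against -0.05 to 0.10 in the other 4. Some results, among them several counts of high genes, are also given without ZnO 1. Counts of low genes are given with all libraries only. The part these differences have in the profile of the 150 genes was not tested.

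The separation was moderate in size and even across the members. The rule value ran from 0.87 to 0.41 on the log2 scale with a median of 0.47, and the lowest FPKM on the high side was 1.33 to 1.98 times the highest on the low side, with a median of 1.42. This ratio is called the rule fold of a gene. As a median over members, log2(FPKM + 1) minus the gene's mean was 0.22, 0.45 and -0.29 in control 1, 2 and 3 and 0.40, -0.35 and -0.42 in ZnO 1, 2 and 3. Over all protein-coding genes averaging 5 FPKM or more the same medians lay between -0.07 and 0.04. The members together made up 1.74%, 2.23% and 1.13% of all FPKM in control 1, 2 and 3 and 2.24%, 1.09% and 1.12% in ZnO 1, 2 and 3. In bulk RNA, fewer cells of a type and less RNA per cell cannot be told apart in any of these values.

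The profile was common outside the 150 as well. Of 8979 protein-coding genes averaging 5 FPKM or more, 1907 (21.2%) had all of control 1, control 2 and ZnO 1 above all of the other 3 libraries, and 1910 (21.3%) had all 3 below. All 150 members are among the former by the rule, so nothing is read from that count. The border fell within a continuum. Just inside stood the transporter ABCC5 at a rule value of 0.410, VWA5B1 at 0.408 and the matrix protein TINAGL1 at 0.408. Just outside stood calsyntenin CLSTN1 at 0.408, the lectin-like LMAN1L at 0.405 and the ER mannosidase-like EDEM3 at 0.404.

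**Figure D1:**
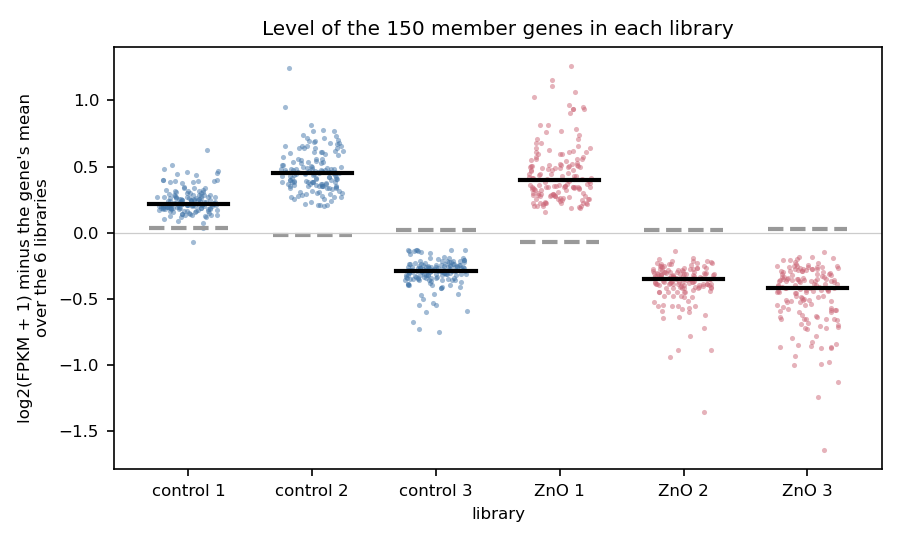
Level of each of the 150 genes in each library, as log2(FPKM + 1) minus the gene's mean over the 6 libraries; each dot is 1 gene, the black marks are the medians of the 150 genes, and the grey dashed marks are the medians of all protein-coding genes averaging 5 FPKM or more. The member medians are 0.22, 0.45 and -0.29 in control 1, 2 and 3 and 0.40, -0.35 and -0.42 in ZnO 1, 2 and 3, while the medians of all genes stay between -0.07 and 0.04.

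The members spanned the range of expression and were ordinary in gene model length. Mean levels ran from 5.06 to 1337 FPKM with a median of 21.0, against a median of 17.9 FPKM over the genes the rule could take. There were 14 members at 100 FPKM or more and 74 under 20 FPKM. The median gene model was 2505 bp in members and 2638 bp in the genes the rule could take. The median member had 671 reads in its lowest library, so counting error was small for most, and the thinnest was the folate receptor family gene FOLR3, with 26 reads. No pair of members were neighbours in the RefSeq gene order.

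The members were sorted by hand by where their proteins are known to act, after their values had been seen. Cell surface proteins numbered 39 (26.0%), proteins of the ER or Golgi 33 (22.0%) and secreted proteins 31 (20.7%). A further 9 are proteins of other or unsettled membranes, 5 belong to endosomes or lysosomes and 2 sit in the nuclear envelope membrane. These 119 genes are 79.3% of the members and 88.8% of the 134 whose site could be assigned. The other genes the rule could take were not sorted in this way, so these shares have no background and are a description of the members only. Outside these compartments were 9 cytosolic proteins, 5 nuclear proteins and 1 mitochondrial protein, and 16 members were left unassigned.

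Among secreted members, the matrix glycoprotein and cytokine osteopontin was the highest in rule value. Values of a group are given in replicate order throughout. SPP1 (gene 395210) stood at 586, 613 and 361 FPKM in control 1, 2 and 3 and at 581, 353 and 361 FPKM in ZnO 1, 2 and 3. The 3 high libraries lay within a narrow band, as did the 3 low ones, and the bands were far apart. Decorin, a small proteoglycan that binds collagen fibrils (DCN, gene 417892), stood at 68.0, 81.3 and 42.3 FPKM in controls against 67.2, 30.6 and 26.6 FPKM in the ZnO libraries. Here ZnO 2 and ZnO 3 were below control 3, which itself was below the high libraries. Periostin, a matrix protein of mesenchyme (POSTN, gene 395429), had 16.04, 19.1 and 9.77 FPKM in the controls and 15.4, 8.24 and 7.21 FPKM in the ZnO libraries, the same order of libraries as decorin on the low side.

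Other structural and remodelling proteins of the matrix followed. Fibrillin-1, the backbone of microfibrils (FBN1, gene 373992), had 20.5, 22.95 and 14.5 FPKM in control 1 to 3 and 20.2, 14.1 and 14.8 FPKM in the ZnO libraries. The gelatinase MMP2 (gene 386583) had 76.2, 93.3 and 56.1 FPKM in the controls, against 81.4, 41.7 and 40.4 FPKM in the ZnO libraries. The low side was flat for fibrillin-1, while for MMP2 control 3 lay between ZnO 2 and ZnO 3 and the high libraries. TIMP2, an inhibitor of matrix metalloproteinases, was also a member, at 105, 107 and 70.1 FPKM in the controls, against 119, 66.9 and 69.4 FPKM in the ZnO libraries. Versican (VCAN), fibulin-1 (FBLN1), the cartilage collagen chain COL9A3 and the calcium-binding matrix protein SMOC2 were further matrix members, with rule folds between 1.34 and 1.57.

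Blood plasma proteins and secreted signals were members too. Transthyretin, a thyroid hormone carrier made by yolk sac endoderm (TTR, gene 396277), was the most abundant member, at 1425, 2381 and 919.5 FPKM in the controls, against 1560.4, 667 and 1071 FPKM in the ZnO libraries. Control 2 stood well above the other high libraries, and ZnO 2 was the lowest. The fibrinogen beta chain (FGB, gene 373926) had 292, 453 and 207 FPKM in the controls, against 369, 176 and 197 FPKM in the ZnO libraries, again with control 2 highest and ZnO 2 lowest. WNT1, the dorsal midline and midbrain-hindbrain signal (gene 396160), had 11.4, 14.2 and 6.48 FPKM in the controls and 16.2, 8.26 and 8.25 FPKM in the ZnO libraries. NOTUM, a secreted enzyme that inactivates WNT proteins, had 32.2, 39.1 and 23.3 FPKM in control 1 to 3 and 40.1, 21.7 and 18.3 FPKM in the ZnO libraries. A WNT ligand and an antagonist of such ligands thus sat in the same set. Without TTR the members' share of all FPKM was 1.47%, 1.78% and 0.966% in control 1, 2 and 3 and 1.91%, 0.966% and 0.924% in ZnO 1, 2 and 3.

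Members of the ER and Golgi covered several steps, from entry to sorting. The pore-forming subunit of the channel through which chains enter the ER, SEC61A1 (gene 416023), had 77.7, 85.5 and 55.3 FPKM in the controls, against 97.1, 53.2 and 57.1 FPKM in the ZnO libraries. Its partners for chains that are already made had the same division: SEC62 stood at 36.2, 41.2 and 24.9 FPKM in the controls, against 35.5, 21.5 and 19.96 FPKM in the ZnO libraries, and SEC63 at 70.9, 86.7 and 52.5 FPKM and at 75.6, 50.6 and 48.8 FPKM. The highest library was ZnO 1 for SEC61A1 and control 2 for SEC62 and SEC63.

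Folding factors followed. BiP, the main HSP70 chaperone of the ER (HSPA5, gene 396487), was the second most abundant member, at 584, 729 and 398 FPKM in the controls, against 772, 428 and 387 FPKM in the ZnO libraries. DNAJB9, a co-chaperone of BiP, had 8.01, 8.60 and 4.99 FPKM in the controls, against 8.65, 5.55 and 4.8 FPKM in the ZnO libraries. P4HB, the protein disulfide isomerase, had 392, 411 and 268 FPKM in the controls and 443, 293 and 295 FPKM in the ZnO libraries. On the low side ZnO 2 was above control 3 in each of these 3 genes. MESDC2 (a chaperone of WNT co-receptors), PLOD2 (a collagen lysyl hydroxylase) and ALG8 (a glucosyltransferase of the sugar chain precursor) were also members, with rule folds between 1.35 and 1.39.

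Enzymes of membrane lipid and glycan metabolism were also among the 33 ER and Golgi members. CEPT1, which makes phosphatidylcholine and phosphatidylethanolamine (gene 421152), had 26.5, 30.1 and 17.4 FPKM in control 1 to 3 and 27.2, 16.9 and 14.2 FPKM in the ZnO libraries. SMPD2, a neutral sphingomyelinase that breaks down sphingomyelin (gene 770663), had 12.6, 13.9 and 7.87 FPKM in the controls, against 15.5, 7.15 and 5.93 FPKM in the ZnO libraries. Both were lowest in ZnO 3. LPCAT3, FADS1, DEGS1 and UGCG, enzymes of phospholipid, fatty acid, ceramide and glucosylceramide synthesis, had rule folds of 1.35 to 1.42. MAN2A1, B3GNT5 and FUT10, Golgi enzymes that trim or extend glycans, had rule folds of 1.38 to 1.48.

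Calcium handling in the ER and Golgi was represented at several steps. SERCA2, the pump that loads the ER with calcium (ATP2A2, gene 396446), had 52.5, 64.5 and 35.7 FPKM in the controls and 65.7, 35.7 and 30.9 FPKM in the ZnO libraries. The Golgi calcium and manganese pump ATP2C1 had 40.98, 43.6 and 27.9 FPKM in control 1 to 3 and 41.7, 30.4 and 28.2 FPKM in the ZnO libraries. ORAI1, the plasma membrane channel that refills ER stores, had 11.8, 11.8 and 7.38 FPKM in the controls, against 11.3, 7.40 and 6.59 FPKM in the ZnO libraries. The rule fold was 1.47 for ATP2A2 and 1.52 for ORAI1, above the members' median, and 1.35 for ATP2C1, near the smallest. SARAF, a brake on store-operated entry, was a member as well, with a rule fold of 1.45.

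At the cell surface, the water channel AQP5 (gene 431305) had the largest rule value of all members. Its level was 28.3, 32.9 and 12.2 FPKM in the controls, against 47.0, 11.01 and 15 FPKM in the ZnO libraries. ZnO 1 was well above both high controls, and the low libraries ran from 11.01 FPKM in ZnO 2 to 15 FPKM in ZnO 3. FOLR3 (gene 112532752) had 7.95, 9.04 and 2.79 FPKM in control 1 to 3 and 9.49, 4.03 and 2.43 FPKM in the ZnO libraries, and SLC46A1, the proton-coupled folate transporter, had 14.2, 13.7 and 9.56 FPKM and 17.6, 8.90 and 8.38 FPKM, so genes for both a folate receptor and a folate carrier were members. Further transport genes were the sodium pump subunit ATP1B3, the sodium-potassium-chloride cotransporter SLC12A2 and the lysolipid transporter MFSD2A, with rule folds of 1.35 to 1.43.

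Adhesion genes included the cadherins CDH2 and CDH11. N-cadherin, the cadherin of the neural tube, somites and heart (CDH2, gene 414745), had 101, 133 and 70.0 FPKM in the controls, against 127, 70.5 and 66.8 FPKM in the ZnO libraries. CDH11, a cadherin of mesenchyme and migrating neural crest, had 72.9, 86.1 and 54.6 FPKM in the controls and 73.9, 44.3 and 45.3 FPKM in the ZnO libraries. The low libraries of N-cadherin lay close together, whereas for CDH11 control 3 was above ZnO 2 and ZnO 3. The metalloprotease ADAM10, which sheds cadherins and Notch from the surface (gene 374113), had 50.4, 52.6 and 33.5 FPKM in control 1 to 3 and 56.6, 33.5 and 33.7 FPKM in the ZnO libraries, with nearly the same value in all 3 low libraries. PERPA, of the family of the desmosome protein PERP, had 37.6, 38.7 and 22.2 FPKM in the controls, against 37.7, 24.1 and 22.2 FPKM in the ZnO libraries. JAM3, MPZL2, ITGA7 and FLRT2, also adhesion proteins, had rule folds of 1.34 to 1.49.

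Receptors and other surface proteins formed the rest of the class. The receptor subunit IL17RE (gene 101752289) had 35.5, 46.9 and 23.4 FPKM in the controls and 50.4, 22.5 and 14.3 FPKM in the ZnO libraries. FCRL4, an Fc receptor-like protein (gene 425592), had 19.4, 25.5 and 11.3 FPKM in control 1 to 3 and 30.6, 9.11 and 5.55 FPKM in the ZnO libraries. In both, ZnO 1 was the highest library and ZnO 3 clearly the lowest. The surface phosphodiesterase ENPP4 (gene 422055) differed in being lowest in control 3, at 13.2, 16.8 and 6.21 FPKM in the controls, against 12.8, 7.24 and 6.92 FPKM in the ZnO libraries. The death receptor TNFRSF10B and TRAIL-LIKE, a ligand of that family, were both members, as were IL6ST, the shared signalling subunit of the interleukin-6 receptors, and the tetraspanins TSPAN3 and TSPAN7.

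Endosomes or lysosomes were represented by 5 genes and the nuclear envelope membrane by 2. LAMP1, the main glycoprotein of the lysosomal membrane (gene 396220), had 138, 166 and 97.3 FPKM in the controls and 179.9, 102 and 102 FPKM in the ZnO libraries. The lamin B receptor LBR (gene 396285), an integral protein of the inner nuclear membrane, had 123, 147 and 87.3 FPKM in control 1 to 3 and 144, 81.6 and 79.9 FPKM in the ZnO libraries. SUN1, which spans the inner nuclear membrane, had 28.0, 34.5 and 19.8 FPKM in the controls, against 28.4, 19.3 and 18.7 FPKM in the ZnO libraries. LBR and SUN1 were both highest in control 2 and lowest in ZnO 3, and LAMP1 was highest in ZnO 1 and lowest in control 3.

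A minority of members lay outside these compartments. RSRP1, an arginine and serine rich nuclear protein (gene 419592), had 30.2, 47.1 and 17.5 FPKM in the controls and 47.5, 6.92 and 5.50 FPKM in the ZnO libraries. ZnO 2 and ZnO 3 were well under control 3, and RSRP1 had the largest ratio of control 3 over ZnO 3 of any member. ZFC3H1, a factor in nuclear RNA turnover (gene 417855), had 12.4, 13.2 and 7.97 FPKM in control 1 to 3 and 13.2, 5.56 and 6.15 FPKM in the ZnO libraries. ATAD1, an ATPase of the outer mitochondrial membrane that extracts misplaced tail-anchored proteins (gene 423676), had 41.9, 48.0 and 24.96 FPKM in the controls, against 49.7, 26.4 and 26.3 FPKM in the ZnO libraries. The other nuclear members were CREBZF, FOXK2 and FOXF2. Of the 16 unassigned members, 14 were highest in ZnO 1, and their median deviation there was 0.62, against 0.40 for the surface class. Of the members with the largest rule values, LOC107049986 and LOC112532614 have no established name. CELA3B, ANGPT4, CPZ and C5orf15, also of large rule value, encode a pancreatic-type elastase, an angiopoietin, a carboxypeptidase of the matrix and a predicted membrane protein. CELA3B, ANGPT4 and CPZ were counted above as secreted and C5orf15 among other membranes, so they are not part of this minority.

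**Figure D2:**
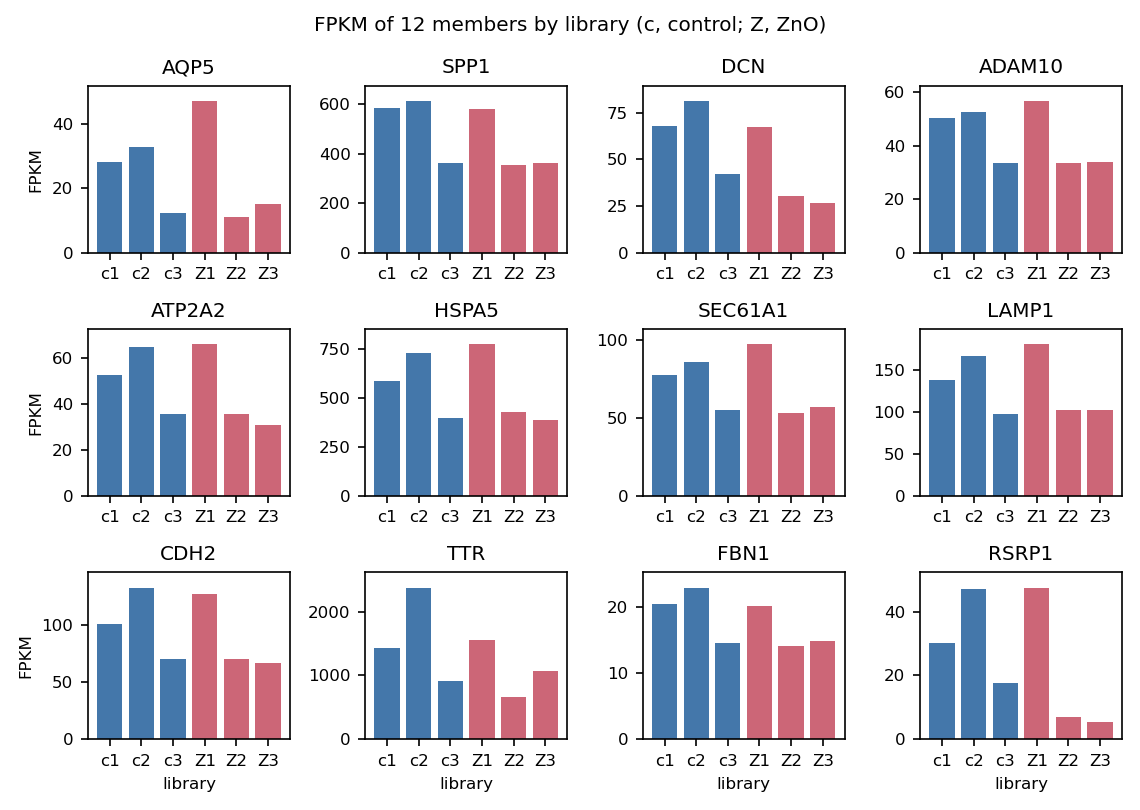
FPKM of 12 members in each library, 1 panel per gene with its own axis from 0; bars are single libraries, so there are no error bars. SPP1 (586, 613 and 361 FPKM in the controls and 581, 353 and 361 FPKM with ZnO) and ADAM10 have level high and low sides, AQP5 is uneven on the high side and DCN on the low side, and RSRP1 is at 17.5 FPKM in control 3, 6.92 FPKM in ZnO 2 and 5.50 FPKM in ZnO 3.

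Within the high side the order of libraries was uneven among the members. The counts that follow have no share over other genes beside them. Control 2 was above control 1 in 144 of 150 members, with a median FPKM ratio of 1.15 against 0.959 over the genes the rule could take. ZnO 1 was above both high controls in 74 members, between them in 48 and below both in 28. The highest library was control 2 for 74 members, ZnO 1 for 74 and control 1 for 2, F2RL2 and FUT10. ZnO 1 was at least 1.2 times both high controls in 16 members, AQP5, ITGA7 and GJA4 among them. The myogenic laminin receptor chain ITGA7 stood at 29.5 FPKM in ZnO 1 against 16.3 and 20.04 FPKM in control 1 and 2, and the gap junction protein GJA4 at 11.6 FPKM against 8.24 and 8.67 FPKM.

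Within the low side the ZnO libraries tended to be the lower ones. ZnO 2 and ZnO 3 were both below control 3 in 85 members and both above it in 13. The lowest library was ZnO 3 for 92 members, ZnO 2 for 45 and control 3 for 13, among the last LAMP1, P4HB, WNT1, ENPP4 and ATP2C1. The median FPKM ratio was 0.960 for ZnO 2 over control 3 and 0.907 for ZnO 3 over control 3, against 0.994 for both over the genes the rule could take. ZnO 3 was lower than control 3 by at least 1.2-fold in 46 members, with RSRP1, FCRL4, TMEM119, SCARA5 and LECT1 among the largest gaps. SCARA5, a scavenger receptor that takes up ferritin, had 4.38 FPKM in control 3 and 2.45 FPKM in ZnO 3, and LECT1 (chondromodulin), an inhibitor of vessel growth, had 11.6 and 6.61 FPKM. The same counts over the genes the rule could take are not given here, so only the median ratios have a background. The rule did not use the order within a side, but it comes from the same 6 values, and no test was made of it.

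The same division was then counted in gene lists and symbol families, over all their genes averaging 5 FPKM or more, members or not. The lists were drawn up by function with earlier results of these data known, and the families by symbol after the values had been seen. The counts use the same values as the rule. They are set beside the 21.2% high and 21.3% low of all genes without a test. Of 31 genes of the ER secretory list, 22 (71.0%) were high in control 1, control 2 and ZnO 1 with no overlap and 4 were low. Calreticulin (CALR), a lectin chaperone that was not itself a member, had 1241, 1589 and 1116 FPKM in control 1 to 3 and 1839, 1191 and 934 FPKM in the ZnO libraries. XBP1, the transcription factor that controls ER capacity, had 113, 137 and 87.8 FPKM in the controls, against 111, 70.6 and 77.5 FPKM in the ZnO libraries. Of the 34 matrix genes 27 (79.4%) were high and none low, and of the 30 adhesion and guidance genes 16 (53.3%) were high and none low. Members made up 5 of the 22 ER genes, 5 of the 27 matrix genes and 2 of the 16 adhesion genes. The heat shock and chaperone list, to which the members HSPA5 and DNAJB9 belong, leaned the other way. Of its 27 genes 4 (14.8%) were high and 12 (44.4%) low.

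Membrane and secretory families, counted with their members included, leaned to the same side. The asparagine-linked glycosylation (ALG) enzymes, which build the sugar chain precursor, were high in 10 of 11 cases and low in none, with ALG14 the exception. The oligosaccharyltransferase, which transfers that chain, was high in 7 of 10 genes and low in none. Its summed level did not follow the division, at 1974, 2142 and 1871 FPKM in the controls and 1829, 1844 and 1618 FPKM in the ZnO libraries. The P-type ATPases were high in 15 of 18 genes, the TM9SF proteins in 4 of 4, the TMED cargo receptors in 5 of 6, the tetraspanins in 7 of 12, the collagens in 17 of 23 and the lysosomal hydrolases in 18 of 27, with none low in any of these 6 families. Of 13 integrins 5 were high and 1 low, and 8 of the 13 were high without control 1. The summed level of the integrins did not follow the division either, with 1119.7 FPKM in control 3 against 1110.1 and 1093 FPKM in control 1 and 2. Proteins named only as transmembrane (TMEM) were high in 61 of 125 cases (48.8%) and low in 6. Members made up 2 of the 4 TM9SF genes, 3 of the 15 high P-type ATPases and 2 of the 7 high tetraspanins. They made up 6 of the 61 high TMEM genes and 1 each of the high ALG, collagen and integrin genes. The oligosaccharyltransferase, TMED and lysosomal hydrolase families held 0 members.

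Several families of cytosolic and nuclear machinery had more low than high genes, though not all did. The translation initiation factors (EIF) were high in 0 of 44 genes and low in 22, and the mitochondrial ribosomal proteins were high in 0 of 73 and low in 30. The proteasome genes (PSM) were high in 1 of 38 and low in 16, the HNRNP RNA-binding proteins in 0 and 9 of 15, the cytosolic chaperonin CCT in 0 and 6 of 7, and the RAB GTPases, cytosolic switches of vesicle traffic, in 1 and 13 of 37. Without ZnO 1 the high counts were 1 of 44 EIF genes, 3 of 73 mitochondrial ribosomal genes, 2 of 38 PSM genes, 1 of 15 HNRNP genes and 3 of 37 RAB genes, and the RAB count was also 3 without control 1. Without any other single library the EIF count was at most 1, the PSM and RAB counts at most 2 and the others 0. The low counts are given with all libraries only. In ZnO 1 the median deviation was -0.36 for EIF, -0.47 for mitochondrial ribosomal and -0.43 for PSM genes. The same medians were 0.05, 0.06 and 0.07 in control 1 and -0.14, -0.05 and -0.08 in control 2. Zinc finger genes (ZNF), nuclear proteins of many kinds, were high in 12 of 65 (18.5%) and low in 6. Of the lists drawn up by function, the chromatin regulators were high in 6 of 41 genes and low in 2, the ubiquitin system in 4 and 4 of 17, and the actin and spectrin cytoskeleton in 4 and 5 of 28. The count of high chromatin regulators was 2 after a shift to equal medians and 2 after quantile normalization, and that of cytoskeletal genes was 7 without ZnO 3. Leaving out 1 library raised the share of all genes counted as high to between 23.1% and 27.1%.

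**Figure D3:**
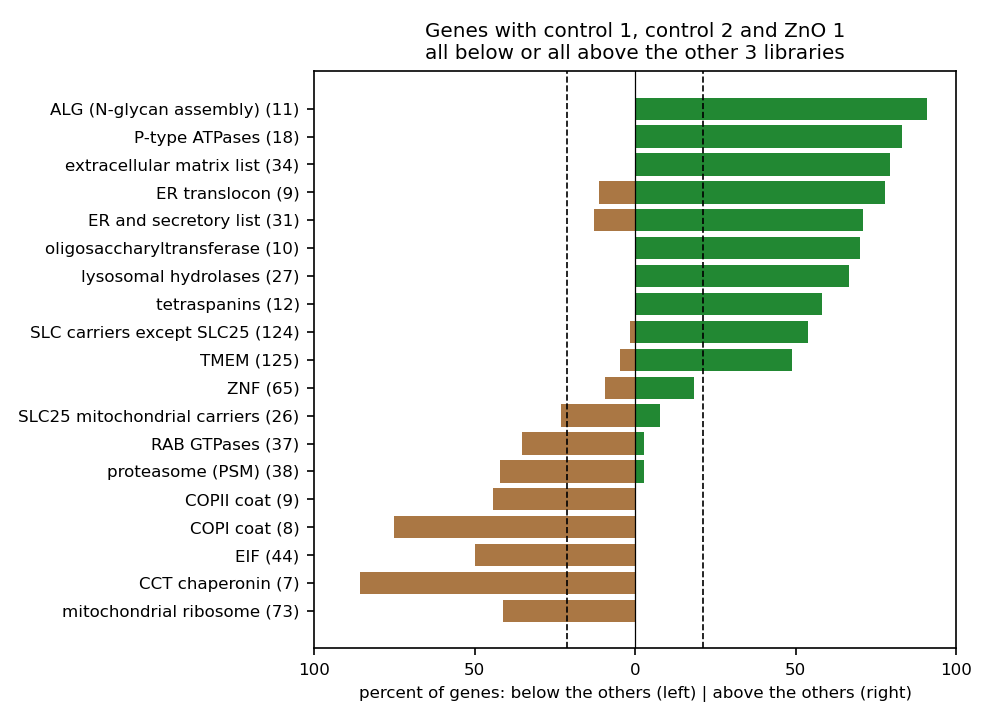
Percent of the measured genes of each list or family that were above (high) or below (low) the other 3 libraries in all of control 1, control 2 and ZnO 1, with no overlap; dashed lines mark the 21.2% high and 21.3% low of all protein-coding genes averaging 5 FPKM or more. Matrix, ALG and P-type ATPase genes lie at 79.4% high or above, while EIF, CCT, COPI coat, COPII coat and mitochondrial ribosomal genes lie at 0% high.

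Several pairs of families do related work at different sites in the cell. These pairs were picked after the values had been seen. Solute carriers other than the SLC25 family, most of which are made at the ER, were high in 67 of 124 cases (54.0%) and low in 2. Of the 67, 3 were members. The SLC25 carriers, which are imported into mitochondria after synthesis in the cytosol, were high in 2 of 26 (7.69%) and low in 6 (23.1%). That share of low genes was near the 21.3% of all genes. The high ones were SLC25A12 and SLC25A28, and their number was 4 without control 1 and 4 without ZnO 2. The mitochondrial ADP/ATP carrier SLC25A5 was one of the low ones, at 175, 162 and 201 FPKM in the controls, against 142, 238 and 224 FPKM in the ZnO libraries. Its lowest values were in the libraries where the members were highest.

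The vacuolar proton pump has a membrane sector, V0, and a cytosolic sector, V1. Of 7 V0 genes 3 were high and 1 low, and of 7 V1 genes 0 were high and 3 low. The count of high V0 genes was 5 without ZnO 1, and V1 stayed at 0 without each library in turn. ATP6V0B, a proton-carrying V0 subunit, had 96.6, 123 and 71.0 FPKM in control 1 to 3 and 104, 81.7 and 64.97 FPKM in the ZnO libraries. The V0 gene on the low side was ATP6V0D1, a subunit bound to the face of the sector rather than set in the membrane, at 31.4, 28.3 and 33.4 FPKM in the controls, against 32.8, 39.8 and 38.97 FPKM in the ZnO libraries. Whether the place of this subunit bears on its level was not tested. ATP6V1G1, of the cytosolic sector, had 108, 90.1 and 115 FPKM in the controls and 61.0, 115 and 118 FPKM in the ZnO libraries, with ZnO 1 by far the lowest.

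In counts of genes, the translocon and the vesicle coats gave a similar contrast within the early route. Of 9 translocon genes 7 were high and 1 low, of 9 COPII coat genes 0 were high and 4 low, and of 8 COPI coat genes 0 were high and 6 low. Members made up 3 of the 7 high translocon genes. The summed level of the translocon genes did not follow the division. It was 912, 904 and 828 FPKM in the controls and 822, 853 and 835 FPKM in the ZnO libraries, lowest in ZnO 1. The coats are cytosolic proteins that bud vesicles from ER and Golgi membranes. COPA, a COPI subunit, had 55.3, 48.7 and 58.6 FPKM in control 1 to 3 and 50.7, 60.2 and 71.8 FPKM in the ZnO libraries. The translocon gene on the low side was SEC61B, at 246, 181 and 254 FPKM in the controls, against 171, 297 and 277 FPKM in the ZnO libraries, and SEC61G overlapped, at 124, 101 and 146 FPKM in the controls, against 48.9, 109 and 124 FPKM in the ZnO libraries. Both are small subunits anchored by a single segment at the tail, and SEC61A1, the large subunit of the same channel, was a member with the opposite division from SEC61B. Whether size or anchoring bears on these levels was not tested.

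**Figure D4:**
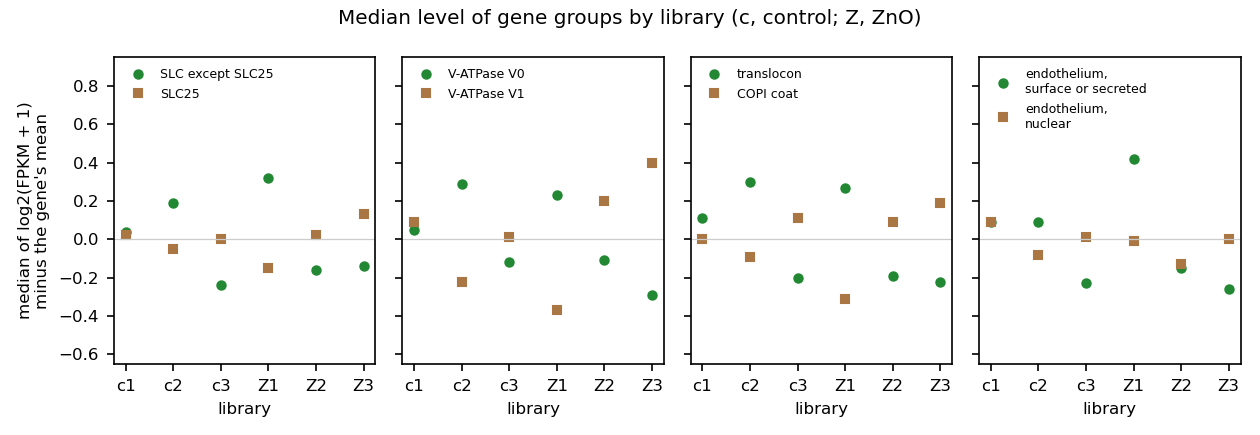
Median of log2(FPKM + 1) minus each gene's mean, per library, for 4 pairs of groups: solute carriers other than SLC25 and SLC25 carriers, V0 and V1 sectors of the proton pump, translocon and COPI coat, and surface or secreted and nuclear endothelial genes. In ZnO 1 the medians are 0.32 and -0.15 for the carriers, 0.23 and -0.37 for V0 and V1, 0.27 and -0.31 for translocon and COPI coat, and 0.42 and -0.01 for the endothelial genes. In control 1, also a high library, the medians of each of these pairs are closer, at 0.04 and 0.02, 0.05 and 0.09, 0.11 and -0.00, and 0.09 and 0.09.

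Some cell type lists were counted by the site of their proteins too: endothelium, endoderm and yolk sac, heart, neural crest and neural tube. For neural crest and neural tube only nuclear regulators were counted. The surface ectoderm and placode list was not split, and of its 18 measured genes 1 was high and 3 were low. Its surface proteins CDH1, CLDN1 and CLDN3 overlapped, with rule values of -0.32, -0.15 and -0.08, and EPCAM was high at 0.23. Of 12 surface or secreted proteins of endothelium 10 were high and none low, whereas of 7 nuclear regulators of endothelium 1 was high and none low. Some of these calls were narrow. Rule values were 0.00 for FLT1, 0.01 for ENG, 0.05 for PECAM1 and 0.06 for EGFL7, all counted as high. Among nuclear factors counted as overlapping they were -0.02 for SOX7 and -0.09 for ERG. The largest rule value of the 12 was 0.30, for CDH5. The cell adhesion protein of vessels CDH5 had 76.8, 72.6 and 51.1 FPKM in control 1 to 3 and 87.1, 52.3 and 58.7 FPKM in the ZnO libraries, while the nuclear factor ERG had 5.83, 5.08 and 5.47 FPKM in the controls, against 5.11, 4.60 and 4.84 FPKM in the ZnO libraries. SOX18 was the nuclear factor on the high side, and the nuclear count was 3 without control 2 and 4 without control 3. Of 15 surface or secreted endoderm and yolk sac genes 7 were high and none low, and of 6 nuclear ones 0 were high and 1 was low. The first of these counts was 11 without control 1 and 13 without ZnO 3, and the second was at most 1 without any single library.

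The heart, neural crest and neural tube lists were counted in the same way. The sarcomere genes of the heart were high in 6 of 12 cases and low in none, and its nuclear regulators in 1 of 12, with 1 low. Sarcomere proteins are cytosolic and do not use the secretory route, yet their share of high genes was above the 21.2% of all genes. By count this list therefore ran against the division by site, but some calls were narrow. Rule values of its high genes ran from 0.04 for MYL2 to 0.40 for ACTN2. The summed level of the sarcomere genes did not follow the rule's division. It was 1525, 1678 and 1473 FPKM in the controls and 1287, 1223 and 1163 FPKM in the ZnO libraries. The reason for the count was not tested. The high nuclear count of the heart was 3 without control 3 and 2 without any of control 1, ZnO 1 and ZnO 3. Nuclear regulators of neural crest were high in 1 of 14 genes, or 2 without control 3. Those of neural tube and brain were high in 0 of 22, or 1 without control 1 or control 3. Of these 22 genes 5 (22.7%) were low, near the 21.3% of all genes. Their median deviation was -0.34 and -0.31 in control 1 and 2 but 0.39 in ZnO 1. The libraries of the high side thus differed among themselves in these genes. The summed level of the endothelial list was 1038 to 1185 FPKM in the controls and 978 to 1377 FPKM in the ZnO libraries, and that of the endoderm and yolk sac list 4907 to 11065 FPKM and 4318 to 9740.4 FPKM. No gene of either list was at 0 in all libraries, and no gene of the germ cell list reached a mean of 5 FPKM. Of the 21 measured genes of the endoderm and yolk sac list 7 were high, 1 was low and the rest overlapped, and the median deviation of the list in ZnO 3 was 0.02 against -0.42 for the members. APOA1, the main apolipoprotein of the yolk sac and one of the high ones, had 5144, 7017 and 3019 FPKM in control 1 to 3 and 6413, 2761 and 4610.4 FPKM in the ZnO libraries. The part of these cell types in the profile was not tested.

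The study compared ZnO with control embryos, and in that comparison no member passed the test. With limma on log2(FPKM + 1), fitted over 13311 genes that averaged at least 1 FPKM and adjusted over all of them by the Benjamini-Hochberg method, 0 of 150 members were called at an adjusted p of 0.05, against 0% of all genes. The smallest adjusted p of a member was 0.940. At an unadjusted p of 0.05 the count was 0 members, against 5.66% of all genes, of which 2.61% were lower with ZnO, and a fit by limma-voom to the whole reads gave 0 as well. That unadjusted count was 12 without control 3 and 74 without ZnO 1, the libraries that the rule set apart from their own groups. The share of all genes in those fits is not given here, so the counts without a library have no background. Members with overlapping groups are what the rule selects, so these counts are set by the choice of genes.

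Of the 150 members 149 had a log2 fold change below 0, against 56.1% of all genes, and the median was -0.25 against -0.03 for all genes. The high side holds 2 of the 3 controls and 1 of the 3 ZnO libraries, so this direction also follows from the choice and is no finding. The smallest unadjusted p-values belonged to TMEM119, a membrane protein of bone-forming cells (log2 fold change -0.63 ± 0.33 SE, limma adjusted p = 0.940), DCN (-0.68 ± 0.37 SE, adjusted p = 0.943) and COL9A3 (-0.55 ± 0.30 SE, adjusted p = 0.943). TMEM119 stood at 10.5, 13.1 and 6.94 FPKM in the controls, against 10.2, 5.404 and 3.87 FPKM in the ZnO libraries, and COL9A3 at 6.89, 8.18 and 3.84 FPKM and at 5.92, 3.46 and 2.62 FPKM. In both, ZnO 1 lay above control 3, so the groups overlapped. WNT1 was the only member above 0, at 0.02 ± 0.32 SE (limma adjusted p = 0.992, 95% interval -0.72 to 0.77).

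The lists from which members came gave no call either, by limma with Benjamini-Hochberg adjustment. The ER secretory list had 0 of 32 genes called in each direction, with 24 below 0 and a median log2 fold change of -0.12. The matrix list had 0 of 38, with 26 below 0 and a median of -0.08, and the adhesion and guidance list 0 of 36, with 17 below 0 and a median of 0.03. Other lists that held members also had 0 genes called. Their median log2 fold change was 0.07 for heat shock and chaperones, 0.11 for endoderm and yolk sac and 0.10 for WNT signalling. It was 0.27 for neural tube and brain and -0.27 for lateral plate and intermediate mesoderm. The spread between libraries of the same group was large for the members: BiP (HSPA5) averaged 570.3 ± 166 FPKM (SD, n = 3) in controls and 529 ± 211 FPKM (SD, n = 3) in ZnO embryos, and N-cadherin (CDH2) 101 ± 31.6 FPKM (SD, n = 3) and 88.1 ± 33.7 FPKM (SD, n = 3). In both genes the difference between the group means was smaller than the SD within each group.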

How the data were processed

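Per the labels' protocols, RNA was taken with Trizol and made into libraries with an Illumina TruSeq kit. The submitters' processing notes name Bowtie2 2.2.3, TopHat2 2.0.12 and HTSeq 0.6.1, with no parameters, and no genome build other than a mouse one. Strand use and annotation are not given in the sources used here. Reads of close paralogs or antisense genes therefore cannot be told apart, and no coordinates are printed. The authors deposited 1 FPKM value per gene and library. In all 13311 genes tested these values were whole multiples of a step, within 0.005 of a whole read, which gave the depths. NCBI gene numbers were matched to the RefSeq table of assembly GRCg7b for symbols and biotypes (19704 of 24098, 81.8%).

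The members and the lists were chosen with earlier results of these data known. ZnO was compared with control by limma 3.58.1 (R 4.3.3, trend, two-sided) on log2(FPKM + 1) for genes averaging at least 1 FPKM, so fold changes of low genes are understated. The fit was checked on simulated data. Members given by name were the 20 with the largest rule value, the 3 on each side of the border, up to 4 in each list with more than 1 member, and the 3 with the smallest p in each direction. Others were added as examples of a role after their values were seen. The 28 families and the division by site were drawn up after the values had been seen. Alternatives were the pseudocount, the filter, the scaling, a replicate term, limma-voom on reads, other forms of the rule and each library left out.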

Additional observations from a re-analysis of the deposited data

How the results depend on the processing

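No member was called between ZnO and control under any alternative run. With a replicate block the number of members at an unadjusted p of 0.05 was 8 against 0. This is not read as an effect because no pairing of same-numbered samples is stated. Correlations of same-numbered residuals were -0.0329, -0.365 and 0.407. The residuals sum to 0 within each group, so these correlations are tied to each other and cannot decide whether samples were paired. Leaving out 1 library gave 0 to 74 members at that unadjusted p, with 12 without control 3 and 74 without ZnO 1. The shares of all genes in the block fit and in these fits are not given here, so the counts have no background. The median log2 fold change of members was -0.26 to -0.23 under the other alternatives and -0.51 to -0.09 with 1 library left out. Ranking by the difference of means in place of the smallest gap kept 53 of the 150 members, and leaving out 1 library kept 55 (without control 1) to 140 (without control 2), with 70 without control 3. Other pseudocounts, filters and scalings kept 116 to 138. All 150 members kept non-overlapping sides after a shift to equal medians and after quantile normalization, which gave 19.8% and 19.4% of all genes high and 24.8% and 23.7% low.

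Of 444 values of 37 named members, 23 changed sign, all with 1 library left out. The log2 fold changes ran from -0.78 to 0.00 for ANGPT4, -0.77 to 0.23 for AQP5, -0.47 to 0.01 for ATAD1, -0.51 to 0.00 for CDH2, -0.75 to 0.06 for FOLR3, -0.44 to 0.06 for HSPA5, -0.62 to 0.09 for LOC107049986, -0.37 to 0.06 for SEC61A1, -0.38 to 0.15 for TINAGL1, -0.62 to 0.06 for VWA5B1 and -0.27 to 0.24 for WNT1. For lists and families, settings chosen after seeing the data moved 100 of 621 counts by over 1.5 times, mostly small counts. The counts of the heat shock and surface ectoderm lists under these settings are not given here. Of the other lists and families with a count of high genes above, a scaling moved the count this far only for the chromatin regulators (2 against 6, under both scalings), SLC25 genes (1 against 2), RAB genes (2 against 1) and nuclear regulators of the heart (0 against 1), the last 3 under quantile normalization. The cause was not tested.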
